A study of Mus musculus with 6 samples.

Results

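The pentose phosphate pathway is described here by the transcripts of its 7 core enzymes in primary mouse chondrocytes after silencing of Pkm2. The members were chosen by gene symbol and were G6pdx, Pgls and Pgd of the oxidative branch and Rpia, Rpe, Tkt and Taldo1 of the non-oxidative branch, 7 of the 55416 genes in the deposited table. The study asked what the glycolytic enzyme PKM2 does in chondrocytes, and compared cells that received a negative control siRNA (siNC, genotype label WT, n = 3 libraries) with cells that received an siRNA against Pkm2 (siPkm2, spelled siPKM2 in the labels, n = 3 libraries). Both groups were chondrocytes grown in DMEM/F12 with 10% serum, and no cytokine or drug is given for either group. The labels name neonatal mouse knee joints as the source, whereas the study's supplementary methods take primary chondrocytes from older mice, so the age is uncertain; strain and sex were not given in the sources used here. The genotype label reads PKM2, PKM3 and PKM4 knockdown for the 3 siPkm2 libraries, and the titles, which name siPKM2 in all of them, were used for grouping. An siRNA lowers its target for a limited time in a culture, and the siPkm2 cells kept part of the transcript.

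The pathway branches from glycolysis at glucose 6-phosphate. Its oxidative branch yields NADPH, the reducing agent for lipid synthesis and for keeping glutathione reduced, and ends in ribulose 5-phosphate. Its non-oxidative branch interconverts sugar phosphates in reversible steps, so that ribose 5-phosphate can be drawn off for nucleotides or carbon can be returned to glycolysis as fructose 6-phosphate and glyceraldehyde 3-phosphate. Cartilage is poorly supplied with blood, and its chondrocytes depend largely on glycolysis, upstream of whose last step the pathway leaves and rejoins.

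Total estimated counts lay between 22316996 and 25691029 per library. The targeted gene, Pkm, was at 1654, 2209 and 1293 TPM (a level scaled for transcript length and depth) in siNC and at 245, 428 and 231 TPM in siPkm2. The transcript was lower in each siPkm2 library than in any siNC library, which checks the labels; it is a gene total and does not separate Pkm1 from Pkm2. Replicate 2 of both groups stood apart: the summed TPM of 11 chondrocyte markers was 4131 in siNC 2 and 5586 in siPkm2 2 and lay between 16058 and 19573 in the other libraries, although Col2a1, the main cartilage collagen, was at 3015 TPM or more in every library. Prg4 and Matn3, 2 of the 11, were called higher with the replicate number as a block in the model, and 0 were called lower. Prg4 was at 8.10, 14.6 and 15.0 TPM in siNC and 72.3, 22.8 and 76.4 TPM in siPkm2. In that fit 12.3% of all tested genes were called higher and 10.8% lower. The summed TPM of 10 interferon-stimulated genes was 41.9, 2102 and 77.3 in siNC and 1413, 3660 and 1007 in siPkm2, so it moved both with replicate 2 and, within each pair, with the knockdown. Of 8 macrophage markers, Ptprc, Adgre1 and Itgam stayed at or below 0.10 TPM in every library, and Cd68 and Cd14 were highest in replicate 2; the sum of the 8 was 118 TPM in siNC 2, 87.7 TPM in siPkm2 2 and between 11.4 and 26.4 TPM elsewhere. The sums of endothelial and muscle markers did not exceed 3.15 and 7.39 TPM. The sum of 6 osteoblast markers was 337, 47.6 and 225 TPM in siNC and 139, 45.9 and 72.3 TPM in siPkm2, with Ibsp called lower when the replicate number was a block in the model. The sum of 6 synovial fibroblast markers was 169, 467 and 246 TPM in siNC and 234, 576 and 361 TPM in siPkm2. Of the 6, 3 were called higher with the block, beside 12.3% of all tested genes. Thy1, Vcam1 and Pdgfra had negative log2 fold changes (-0.92, -0.74 and -0.38 with the block) and were not called. The sum rose mainly through Pdpn (log2 fold change 1.19 with the block), the most abundant of the 6 in each siPkm2 library. The sum of 8 cell cycle genes was 567, 402 and 374 TPM in siNC and 439, 373 and 307 TPM in siPkm2. With the block, 4 of 8 were called lower, beside 10.8% of all tested genes. Mcm2, Mcm5 and Pcna had positive log2 fold changes (0.29, 0.12 and 0.18 with the block) and were not called. The osteoblast, synovial fibroblast and cell cycle sums thus each moved 1 way in every pair, while single genes within the lists differed. The part of these differences in the results that follow was not tested, and each member that was called is also given without replicate 2.

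Sequence is shown for 3 start regions, because G6pdx, Pgd and Taldo1 are the members whose levels passed a test below. The windows are RefSeq promoters on GRCm38.p6 that run from 250 bases before to 50 bases after an annotated start, on the strand of the gene. All 7 members matched this table. Capitals mark the core of the antioxidant response element, the site read by the redox-responsive factor Nrf2 (TGACNNNGC, or GCNNNGTCA on the other strand, both strands searched).
G6pdx, chrX:74428831-74429130, minus strand: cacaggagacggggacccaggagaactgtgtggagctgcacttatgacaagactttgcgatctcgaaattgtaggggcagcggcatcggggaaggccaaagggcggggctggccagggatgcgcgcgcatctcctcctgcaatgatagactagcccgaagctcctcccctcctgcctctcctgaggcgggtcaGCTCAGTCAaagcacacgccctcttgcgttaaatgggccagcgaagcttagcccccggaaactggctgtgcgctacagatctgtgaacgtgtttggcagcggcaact
Pgd, chr4:149166033-149166332, minus strand: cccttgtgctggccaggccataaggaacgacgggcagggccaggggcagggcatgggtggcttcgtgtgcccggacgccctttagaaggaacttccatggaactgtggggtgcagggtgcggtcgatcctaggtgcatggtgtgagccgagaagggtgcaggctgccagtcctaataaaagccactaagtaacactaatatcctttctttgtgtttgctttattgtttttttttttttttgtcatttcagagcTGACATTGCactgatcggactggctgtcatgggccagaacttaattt
Taldo1, chr7:141391910-141392209, plus strand: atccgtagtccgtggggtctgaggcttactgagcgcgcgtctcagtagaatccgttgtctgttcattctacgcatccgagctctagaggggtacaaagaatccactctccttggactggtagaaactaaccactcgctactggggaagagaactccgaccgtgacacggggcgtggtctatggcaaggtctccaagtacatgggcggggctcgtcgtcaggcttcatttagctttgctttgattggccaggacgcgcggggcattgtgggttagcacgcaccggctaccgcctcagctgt
The G6pdx window holds 1 match, which begins at position -57 from the start used for the window. This window lies wholly inside the annotated G6pdx gene, whose upstream end is at 74429194. The Pgd window shown is 1 of 2 annotated for the gene and holds 1 match at position 4. It too lies wholly inside the annotated gene, whose upstream end is at 149166771. The other Pgd window, 149166656-149166955, spans that end and holds none. The window of Taldo1, the member with the largest change, holds none, and neither do those of Pgls, Rpia, Rpe and Tkt. By gene, matches occurred in at least 1 window of 2 of the 7 members (28.6%) and of 16.8% of the 11108 tested genes in the table. By window they occurred in 12.4% of all 32851 promoters. Both G6pdx and Pgd count among the 2 members only through a window inside the annotated gene. A match is common and describes letters only.

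Silencing of Pkm2 was accompanied by higher levels of 3 of the 7 enzymes, and these sat at both ends of the pathway. Taldo1 was 3.45-fold higher, Pgd 1.78-fold and G6pdx 1.53-fold when the replicate number entered the model as a block, whereas Tkt, the partner of Taldo1 in the non-oxidative branch, differed by a log2 fold change of -0.02. Over all libraries in edgeR, these 3 were called only with the block. With no block, 0 of 7 members passed an adjusted p of 0.05 in edgeR's quasi-likelihood test, as did 0 of all 15269 genes tested (0%), while 2 members (G6pdx and Taldo1) lay under an unadjusted p of 0.05 beside 17.6% of all tested genes. DESeq2 with no block called Taldo1 alone among the members and 825 genes in all (5.31%). With the block, 12.3% of all tested genes were called higher and 10.8% lower, against 3 higher and 0 lower among the 7 members. The study's methods state in general that experiments were repeated independently, but no source used here says what a replicate number stands for in these libraries, so the p-values measure the spread between these libraries. Permutation of the group labels over 3 against 3 libraries cannot give an exact p under 0.1 for any single gene.

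**Figure D1:**
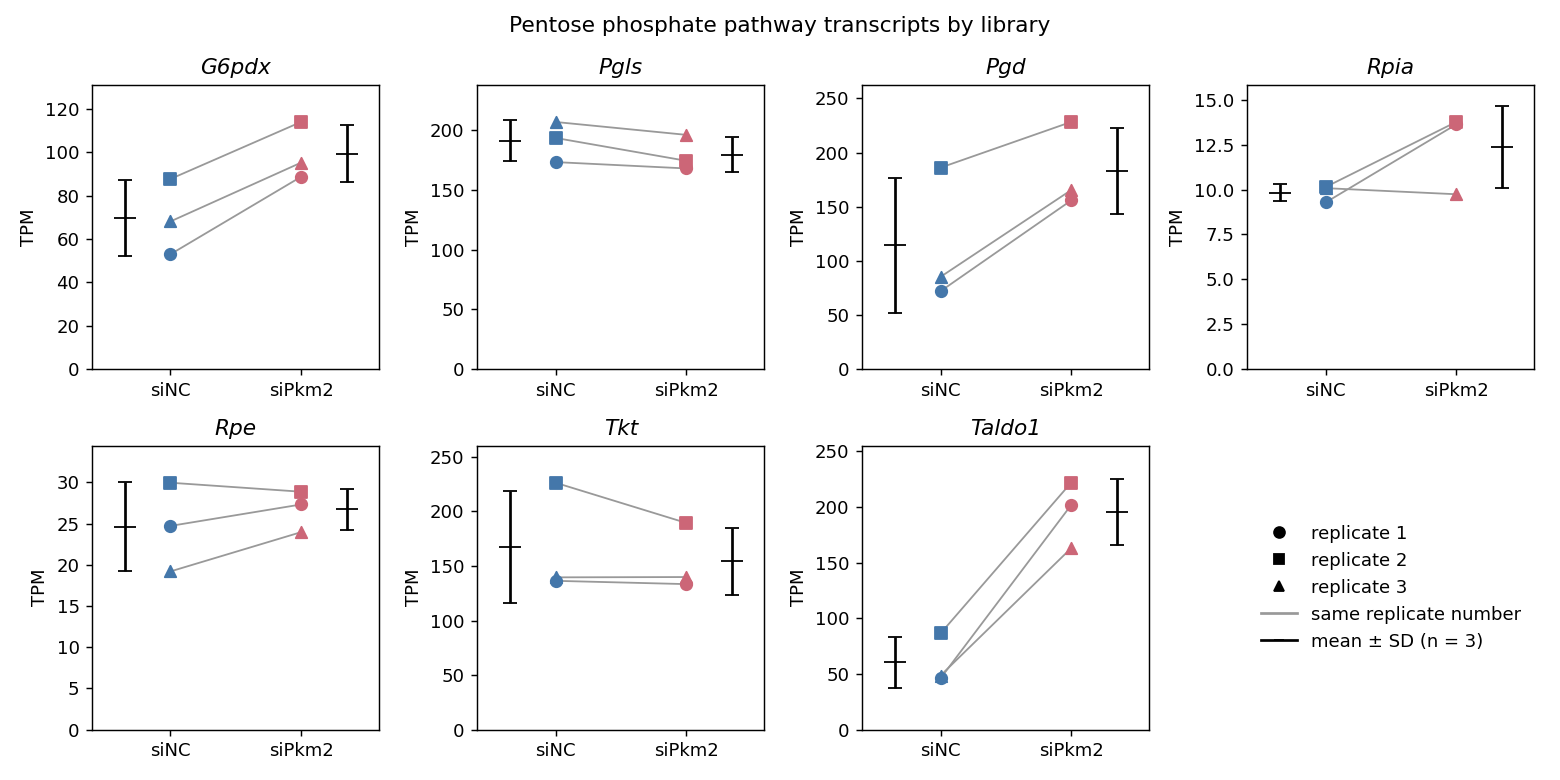
TPM (vertical axes, from 0) of each enzyme in the 3 siNC and 3 siPkm2 libraries; grey lines join libraries of the same replicate number and black bars give the mean ± SD (n = 3). Taldo1 and G6pdx are higher in every siPkm2 library than in any siNC library, the Pgd lines all climb while its groups overlap, and the Tkt and Pgls groups overlap.

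Every member passed the filter on low counts, so that none was lost from the comparison. The siNC order by mean TPM was Pgls (191 ± 16.9, SD), Tkt (167 ± 51.0), Pgd (114 ± 62.4), G6pdx (69.6 ± 17.4), Taldo1 (60.4 ± 22.6), Rpe (24.6 ± 5.38) and Rpia (9.83 ± 0.48). Pgls and Tkt, Tkt and Pgd, Pgd and G6pdx, and G6pdx and Taldo1 lay within the spread of their libraries as neighbours, whereas Rpe and Rpia were apart from the rest and from each other. In siPkm2 the order was Taldo1 (195.5 ± 29.9), Pgd (183 ± 39.4), Pgls (179 ± 14.8), Tkt (154 ± 30.7), G6pdx (99.3 ± 13.1), Rpe (26.7 ± 2.51) and Rpia (12.4 ± 2.29). The first 4 of these overlapped, and G6pdx, Rpe and Rpia were each apart. Taldo1 therefore moved from the fifth place to among the most abundant enzymes of the pathway, and the 2 enzymes that act on ribulose 5-phosphate, Rpia and Rpe, had the lowest levels in both groups.

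G6pdx encodes the enzyme of the committed, NADPH-forming entry step of the pathway. Its gene lies on chromosome X at 74409483-74429194 (GRCm38, minus strand). Its level was 52.9, 87.7 and 68.1 TPM in siNC and 88.7, 114 and 95.2 TPM in siPkm2. The groups did not overlap, though siNC 2 and siPkm2 1 differed by little, and within the pairs the ratio of siPkm2 over siNC was 1.67, 1.30 and 1.40. The log2 fold change was 0.60 ± 0.19 (SE) with an adjusted p of 0.188 by edgeR with no block, and 0.62 ± 0.094 with an adjusted p of 0.0164 with the block. Without both libraries of replicate 2 the blocked adjusted p was 0.00123, and it was 0.103 without replicate 1 and 0.125 without replicate 3. The annotated G6pdx gene lies wholly within Ikbkg on the opposite strand, and 418 exonic bases are shared. As the strand setting of the counting was not given in the sources used here, reads in the shared exons cannot be assigned with certainty; Ikbkg had a log2 fold change of 0.10 and an adjusted p of 0.639 with the block.

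Pgls encodes 6-phosphogluconolactonase, which opens the lactone made by G6pdx. Its gene lies on chromosome 8 at 71592176-71601092 (plus strand). It was measured at 173, 193 and 207 TPM in siNC and at 168, 174 and 196 TPM in siPkm2. The groups overlapped, and the log2 fold change was -0.08 ± 0.12 (adjusted p = 0.773 by edgeR, 0.463 with the block). Pgls and its same-strand neighbour Fam129c (Niban3 in the deposited table) share 776 exonic bases, so their counts may be divided with error. Niban3 was between 1.23 and 3.77 TPM, far below Pgls, and fell by 1.24 on the log2 scale with the block (adjusted p = 0.0266).

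Pgd encodes 6-phosphogluconate dehydrogenase, the second NADPH-forming step. It lies on chromosome 4 at 149149991-149166771 (minus strand) and overlaps no other annotated gene. Its level was 71.8, 186 and 85.1 TPM in siNC and 156, 228 and 165 TPM in siPkm2. The library siNC 2 exceeded siPkm2 1 and siPkm2 3, so the groups overlapped, while each siPkm2 library exceeded the siNC library of its own number, with ratios of 2.17, 1.23 and 1.94. Accordingly the log2 fold change of 0.75 ± 0.35 had an adjusted p of 0.331 by edgeR with no block, and 0.83 ± 0.16 had an adjusted p of 0.0242 with the block. The smallest ratio came from the replicate 2 pair, and without that pair the blocked adjusted p was 0.00034; without replicate 1 it was 0.119 and without replicate 3 it was 0.145. With siNC 2 alone left out and no block, the log2 fold change was 1.22 by edgeR (adjusted p = 0.0594), larger than the value over all libraries.

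Rpia encodes ribose-5-phosphate isomerase, which turns ribulose 5-phosphate into the ribose 5-phosphate of nucleotides. Its gene lies on chromosome 6 at 70765720-70792232 (minus strand). It was the scarcest member, at 9.28, 10.1 and 10.1 TPM in siNC and 13.6, 13.8 and 9.74 TPM in siPkm2, on 226 to 354 estimated counts per library. The libraries siPkm2 1 and siPkm2 2 lay above all siNC libraries and siPkm2 3 did not, although in CPM (counts scaled for depth only) the groups were just apart. The log2 fold change was 0.28 ± 0.18 (adjusted p = 0.481 by edgeR, 0.201 with the block). Rpia thus missed the threshold in both fits.

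Rpe encodes ribulose-phosphate 3-epimerase, which makes xylulose 5-phosphate, a substrate of transketolase. Its gene lies on chromosome 1 at 66700831-66719805 (plus strand) and shares 558 bases of exon with Kansl1l on the other strand. The level was 24.7, 30.0 and 19.2 TPM in siNC and 27.3, 28.9 and 24.0 TPM in siPkm2. The groups overlapped, and the pairs did not all move one way. The log2 fold change was 0.15 ± 0.20 (adjusted p = 0.763 by edgeR, 0.270 with the block), and without siNC replicate 3 it was -0.0094. Kansl1l itself fell by 0.73 on the log2 scale with the block (adjusted p = 0.016), from between 6.43 and 9.07 TPM to between 4.28 and 5.54 TPM, so reads assigned across strands would bear on Rpe.

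Tkt encodes transketolase, the thiamine-dependent enzyme that moves 2-carbon units. Its gene lies on chromosome 14 at 30548359-30574720 (plus strand), and overlaps the microRNA gene Mir3076. The level was 136, 226 and 140 TPM in siNC and 133, 190 and 140 TPM in siPkm2. Replicate 2 was the highest library of each group and the 4 other libraries lay between 133 and 140 TPM. The log2 fold change was -0.04 ± 0.23 (adjusted p = 0.954 by edgeR, 0.877 with the block). Its sign turned when siNC replicate 2 was left out (0.19) and in 3 further alternatives, so no direction can be given for Tkt.

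Taldo1 encodes transaldolase, which moves 3-carbon units and returns carbon to fructose 6-phosphate. Its gene lies on chromosome 7 at 141392199-141402968 (plus strand) and overlaps no other annotated gene. Its level was 46.2, 86.5 and 48.6 TPM in siNC and 202, 222 and 163 TPM in siPkm2. The lowest siPkm2 library was far above the highest siNC library, and the ratio within the pairs was 4.37, 2.57 and 3.35. The estimated counts were 794, 1259 and 673 in siNC and 2901, 3544 and 2300 in siPkm2, so the difference did not rest on few reads. The log2 fold change was 1.75 ± 0.25 (3.37-fold) with an adjusted p of 0.0815 by edgeR with no block, and 1.79 ± 0.14 (3.45-fold) with an adjusted p of 0.00942 with the block. DESeq2 gave an adjusted p of 2.01e-06 with no block. Taldo1 was also called with no block in edgeR when siNC replicate 2 was left out (adjusted p = 0.0345), and not when any other single library was (adjusted p up to 0.386). With the block, the adjusted p was 9.9e-05 without replicate 2, 0.0642 without replicate 1 and 0.0799 without replicate 3, when only 2 pairs remained in each case. Among the 15269 tested genes Taldo1 ranked 136 from the top by log2 fold change and 45 by p with the block. It was the member called with a fold change over 2, a rule that 2.65% of all tested genes met in the higher direction with the block.

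**Figure D2:**
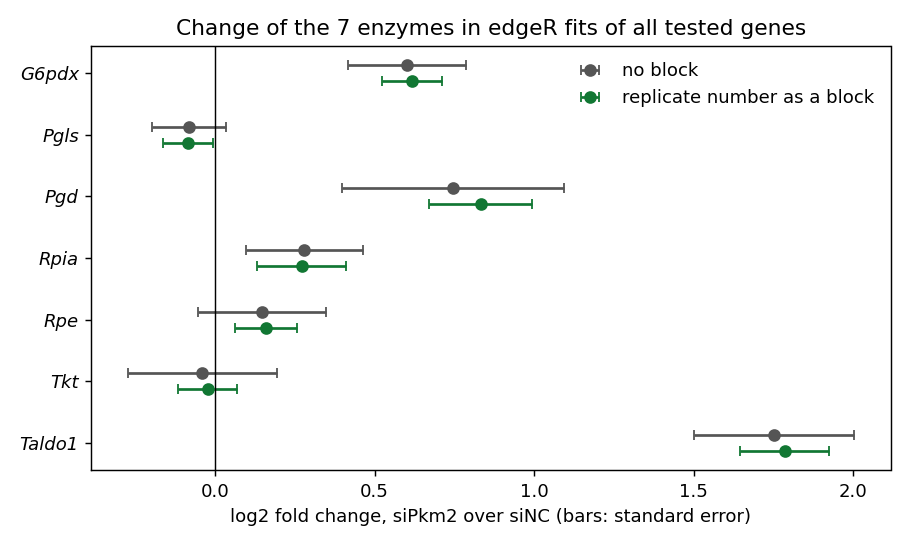
Log2 fold change of siPkm2 over siNC (horizontal axis) with its standard error for each enzyme, in edgeR with no block (grey) and with the replicate number as a block (green). The block leaves the estimates close to where they were and shortens the bars, most for Tkt and Pgd; Taldo1 lies at 1.75 and 1.79, G6pdx and Pgd between 0.60 and 0.83, and Pgls and Tkt next to 0.

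By the spread of the single libraries, 3 of 7 members (G6pdx, Rpia and Taldo1) had siPkm2 CPM values all above the siNC values, a pattern that 12% of all tested genes had. In CPM, G6pdx, Pgd, Rpia and Taldo1, 4 of 7, were higher in siPkm2 in all 3 pairs, as were 30.5% of all tested genes. In TPM, Rpia was lower in siPkm2 3 than in siNC 3 (9.74 against 10.1). Its separation in CPM rests on 10.374 in siPkm2 3 against 10.370 in siNC 1. The exact two-sided permutation p of log2 CPM over the 3 against 3 libraries was 0.1, the smallest possible, for G6pdx, Rpia and Taldo1. It was 0.3 for Pgd, 0.4 for Pgls, 0.6 for Rpe and 0.8 for Tkt. The median log2 fold change with no block was 0.60 over the 3 oxidative enzymes and 0.21 over the 4 non-oxidative enzymes, beside -0.02 over all genes tested.

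The make-up of the pathway mRNA differed accordingly between the groups. The 7 levels summed to 515, 820 and 578 TPM in siNC and to 788, 971 and 793 TPM in siPkm2. The sum was higher in siPkm2 in each pair, while siNC 2 exceeded siPkm2 1 and siPkm2 3. The oxidative branch held 57.9%, 57.0% and 62.3% of the sum in siNC and 52.3%, 53.2% and 57.6% in siPkm2, lower in each pair with overlapping groups. Its own level was higher in each pair, at 298, 467 and 360 TPM in siNC and 412, 517 and 457 TPM in siPkm2. Taldo1 alone took 8.98%, 10.5% and 8.42% of the sum in siNC and 25.6%, 22.9% and 20.6% in siPkm2. The share of Tkt was 26.5%, 27.6% and 24.2% in siNC and 16.9%, 19.5% and 17.6% in siPkm2, without overlap, while the level of Tkt itself overlapped. The ratio of Taldo1 to Tkt, the 2 enzymes that together link the pathway back to glycolysis, was 0.339, 0.382 and 0.348 in siNC and 1.51, 1.17 and 1.17 in siPkm2. This ratio was alike among the siNC libraries, replicate 2 included, and the lowest siPkm2 ratio was far above the highest siNC ratio. The ratio of G6pdx to Tkt was 0.388, 0.387 and 0.488 in siNC and 0.665, 0.601 and 0.681 in siPkm2, again without overlap, and the ratio of Pgd to G6pdx overlapped, at 1.25 to 2.12 in siNC and 1.74 to 2.0 in siPkm2. These shares and ratios were formed after the levels were seen and are given without a test.

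**Figure D3:**
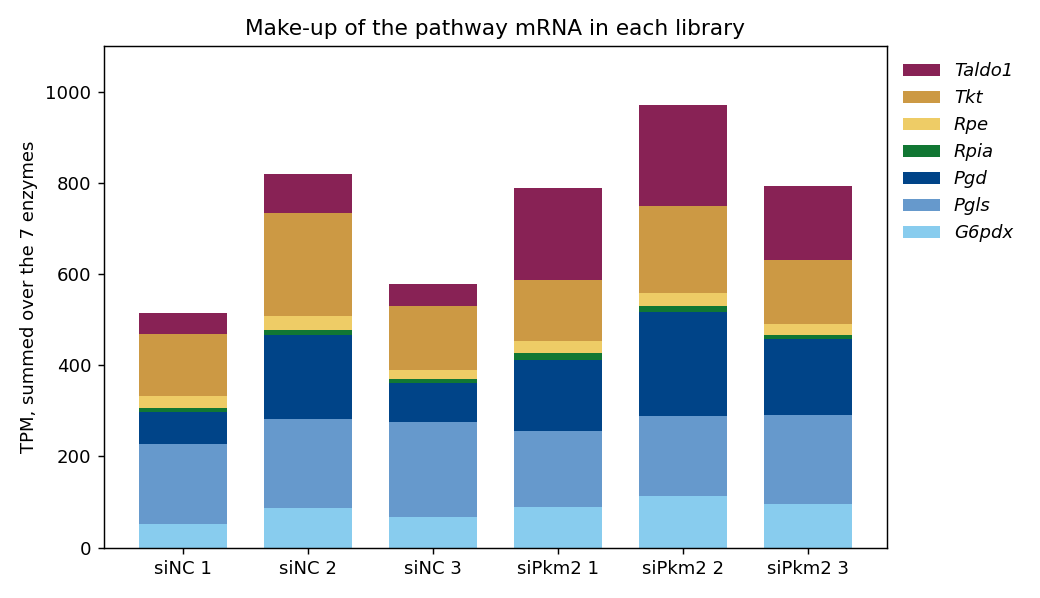
Summed TPM of the 7 enzymes in each library (vertical axis, from 0), stacked by enzyme, with the oxidative branch at the bottom in blue. The Taldo1 block at the top grows from between 46.2 and 86.5 TPM in siNC to between 163 and 222 TPM in siPkm2, while the Tkt block below it lies between 133 and 226 TPM throughout.

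G6pdx, Pgd, Tkt and Taldo1 had their highest level of each group in replicate 2. In siNC 2 the CPM of Pgd, Taldo1, Tkt and G6pdx lay above the group mean on the log2 scale by 0.74, 0.49, 0.40 and 0.33, and in siPkm2 2 by 0.29, 0.14, 0.27 and 0.15. Rpe lay above its group means by 0.21 in siNC 2 and 0.05 in siPkm2 2, and Rpia by -0.01 in siNC 2 and 0.18 in siPkm2 2. Pgls deviated by -0.01 and -0.08 on the same scale. The replicate that held higher levels of these enzymes was the one with low chondrocyte markers and high interferon-stimulated genes, and the part of either in the enzyme levels was not tested. Without replicate 2, G6pdx, Pgd and Taldo1 were called higher with the block, in a fit that called 19.8% of 15185 genes higher. Without replicate 1, or without replicate 3, the block called none of the members by edgeR, and 0 of all tested genes.

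By Pearson correlation of log2 CPM over the 6 libraries, among 9769 genes with a mean of at least 10 CPM, the genes most like G6pdx were Zfp280b (r = 0.998), Emb, Psmb10, an interferon-inducible proteasome subunit, Prkab1, a subunit of the energy sensor AMPK, and Ciao1 (r = 0.995). The genes most like Tkt were Jun, an immediate early transcription factor (r = 0.994), Kmt5a, Rdh11, Mettl6 and Scarb1, the receptor for high-density lipoprotein (r = 0.992). Emb, for example, was at 99.2, 211 and 114 TPM in siNC and 229, 350 and 271 TPM in siPkm2, highest in replicate 2 and higher in siPkm2 in each pair, as G6pdx was. Jun was at 42.6, 137 and 41.1 TPM in siNC and 42.2, 90.4 and 42.0 TPM in siPkm2, which like Tkt differs by replicate rather than by group. The 6 points share libraries, depth and group, and with so many genes ranked over 6 points high values arise readily, so these names describe patterns only.

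The relatives of the pathway enzymes ranged from undetected to as abundant as the members. G6pd2, a retrogene of G6pdx, and Tktl1 and Tktl2, relatives of transketolase, did not exceed 0.24 TPM in any library and were not tested. Of the 6 relatives tested of 9, 2 rose with the block and none fell. H6pd, the hexose-6-phosphate dehydrogenase of the endoplasmic reticulum, was at 38.9, 130 and 51.9 TPM in siNC and 69.2, 155 and 76.8 TPM in siPkm2, with a log2 fold change of 0.56 with the block (adjusted p = 0.0265). Idnk, a gluconate kinase that feeds 6-phosphogluconate, was at 11.0, 18.2 and 14.1 TPM in siNC and 22.3, 28.0 and 25.2 TPM in siPkm2, without overlap (log2 fold change 0.75, adjusted p = 0.0158 with the block). Both act on routes to 6-phosphogluconate, the substrate of Pgd, H6pd inside the endoplasmic reticulum. With no block, edgeR called neither (adjusted p = 0.665 for H6pd and 0.145 for Idnk) nor any gene of the lists described next, while DESeq2 with no block called Idnk (adjusted p = 0.0369) and, of the genes named next, Nadk (adjusted p = 0.0271). With the block but without replicate 1, or without replicate 3, 0 of all tested genes were called by edgeR, so the calls in these lists rest on all 3 pairs or on pairs 1 and 3.

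Of the glycolytic enzymes that make or use metabolites of the pathway, 13 of 16 were tested, 1 rose and 1 fell with the block, and 11 did not pass. The 2 were subunits of the same enzyme, phosphofructokinase, which competes for fructose 6-phosphate. Pfkl, its most abundant subunit here, was at 113 to 127 TPM in siNC and 121 to 130 TPM in siPkm2. It did not pass (log2 fold change 0.15, adjusted p = 0.301 by edgeR with the block). Pfkp was at 54.6, 73.3 and 35.8 TPM in siNC and 61.0, 103 and 49.3 TPM in siPkm2 (log2 fold change 0.46, adjusted p = 0.0207 with the block). Pfkm was at 41.5, 56.4 and 43.8 TPM in siNC and 23.1, 39.5 and 25.0 TPM in siPkm2, and fell by 0.68 on the log2 scale (adjusted p = 0.0169 with the block). Tigar, which diverts carbon into the pathway by lowering fructose 2,6-bisphosphate, was at 3.73 to 4.62 TPM in siNC and 4.28 to 6.08 TPM in siPkm2 (adjusted p = 0.0757 with the block). The median log2 fold change of the 13 was 0.19 with the block, beside -0.01 over all genes tested.

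Among 12 other genes for enzymes that form NADPH or its precursor NADP, 2 rose with the block and 10 did not pass, with a median log2 fold change of 0.04 with the block. Nadk, the kinase that makes NADP from NAD, was at 69.1, 96.9 and 65.3 TPM in siNC and 106, 119 and 107 TPM in siPkm2, without overlap (log2 fold change 0.57, adjusted p = 0.0165 with the block). Mthfd1, a folate-cycle enzyme, had a log2 fold change of 0.35 (adjusted p = 0.0473 with the block). Of 14 genes for enzymes that use NADPH, 2 rose, 1 fell and 11 did not pass, with a median of -0.03 with the block. Gsr, glutathione reductase, was at 17.1, 40.4 and 11.0 TPM in siNC and 44.6, 57.8 and 33.2 TPM in siPkm2, so that the groups overlapped while each pair rose (log2 fold change 1.19, adjusted p = 0.0194 with the block). Akr1b3, aldose reductase, had a log2 fold change of 0.55 (adjusted p = 0.0165), and Sqle, the squalene epoxidase of sterol synthesis, fell by 0.55 (adjusted p = 0.0205), both with the block.

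Among 15 genes of ribose 5-phosphate use and nucleotide synthesis, 4 rose with the block and 11 did not pass, and the median log2 fold change was 0.22 with the block. The 4 belong to phosphoribosyl pyrophosphate and purine synthesis. Ppat, the committed enzyme of purine synthesis, was at 8.10, 6.81 and 6.29 TPM in siNC and 15.2, 11.3 and 9.46 TPM in siPkm2, without overlap (log2 fold change 0.74, adjusted p = 0.0185 with the block). Paics and Atic, later enzymes of the same route, had log2 fold changes of 0.44 and 0.47 (adjusted p = 0.0377 and 0.0332), and Prpsap1, which associates with phosphoribosyl pyrophosphate synthetase, had one of 0.33 (adjusted p = 0.0373), all with the block. The shares of these lists that were called higher and lower stand beside the 12.3% and 10.8% of all tested genes given above.

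Of 8 regulators known to act on the pathway genes or enzymes, 2 rose, 1 fell and 5 did not pass with the block. Of all tested genes, 12.3% were called higher and 10.8% lower in that fit. Bach1, a repressor of antioxidant genes, had a log2 fold change of 0.40 (adjusted p = 0.0263), and Trp53, which encodes the tumour suppressor p53, had one of 0.36 (adjusted p = 0.0352). Sirt2, a deacetylase, fell by 0.42 (adjusted p = 0.0268). Nfe2l2, which encodes Nrf2, had a log2 fold change of 0.00 with an adjusted p of 0.972 with the block, and Keap1, its inhibitor, had one of -0.29 with an adjusted p of 0.137. These are transcript levels and do not measure the activity of the factors.

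**Figure D4:**
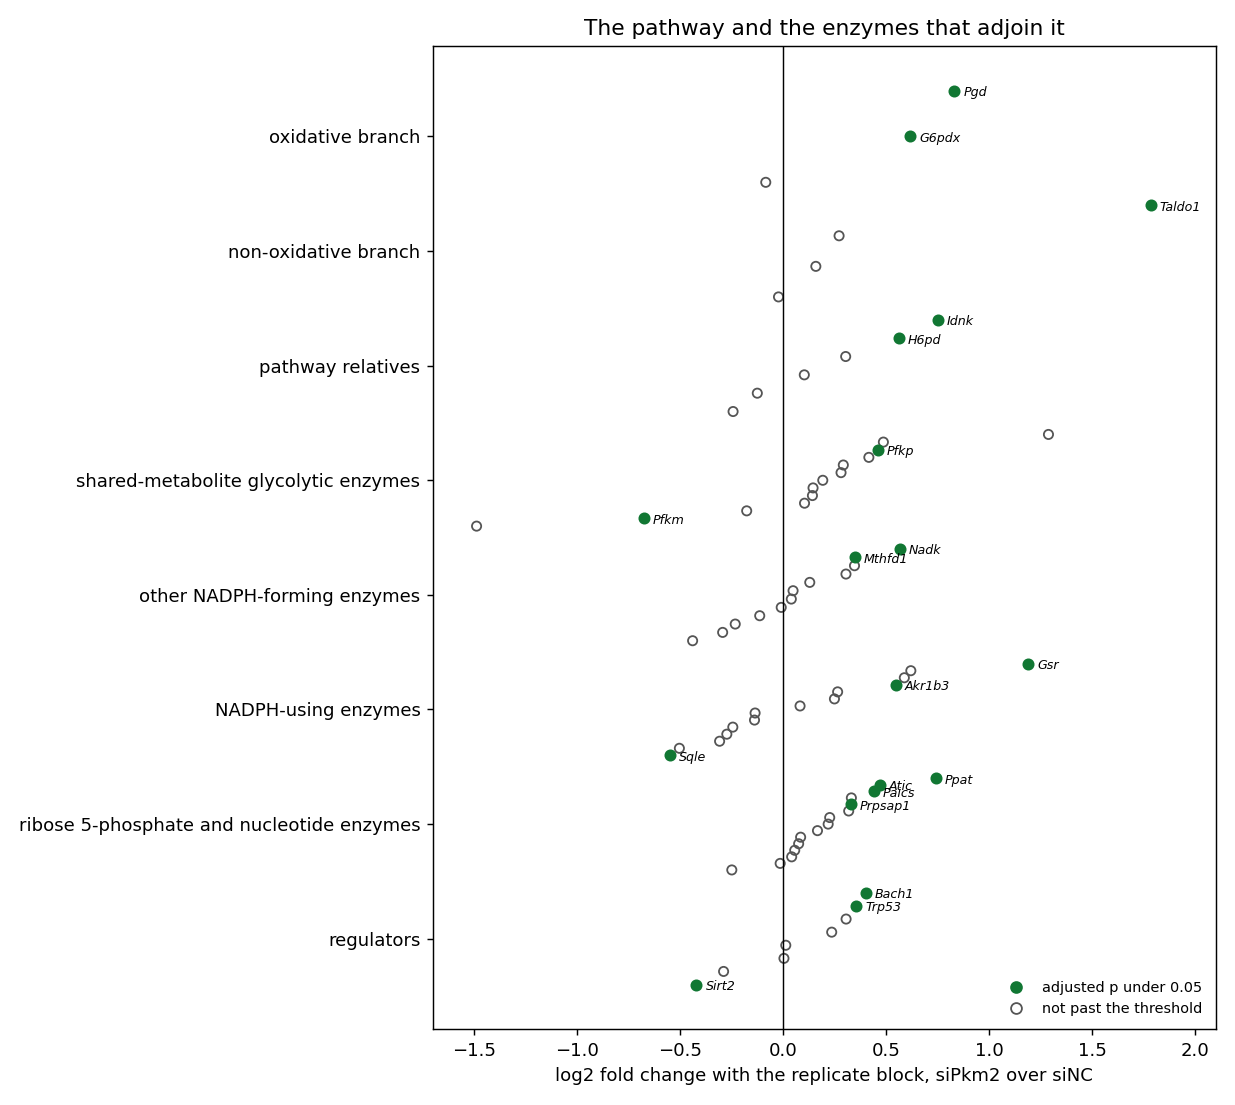
Log2 fold change with the replicate block (horizontal axis) for each tested gene of the 2 branches and of 6 lists of adjoining genes, with genes at an adjusted p under 0.05 filled and named. Taldo1 has the largest value of the genes shown, and the named genes of the other lists lie between -0.68 and 1.19.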

How the data were processed

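RNA-seq of 6 libraries of primary mouse chondrocytes was analysed, 3 per group, grouped by the titles in the labels. The members and all gene lists were chosen with earlier results of these data known. The authors deposited estimated counts per gene, some of them fractional and not normalized, gene lengths, and TPM values, which the authors scaled for length and depth within each library (the rows used here sum to between 992499 and 995069). They also deposited group means of TPM and columns of their own comparison, which hold a fold (ratio), its log2 and raw and adjusted p-values for each gene; none of these was used. The submitters' processing notes name edgeR and mm9; the aligner, counting method and annotation were not given in the sources used here. As the files hold no coordinates, gene positions were taken from GENCODE M21 on GRCm38 and promoters from RefSeq on GRCm38.p6.

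Before testing, each estimated count was rounded to a whole number; R 4.3.3 and edgeR 4.0.16 were used. Genes were kept by filterByExpr on the group (15269 of 55416, of which 28059 had a count). With TMM scaling, siPkm2 was compared with siNC by the quasi-likelihood test, and p-values were adjusted by Benjamini-Hochberg across every tested gene; fold changes in the text are from this fit or, where the text says so, from the same fit with the replicate number as a block. Depth was alike in both groups (22316996 to 25691029), so the precision of a level was set mainly by the spread between libraries. Samples of a group were not duplicates: between 53.0% and 73.3% of genes differed beyond sampling noise. The labels number the replicates 1, 2 and 3 in each group, and libraries were paired by these numbers, whose meaning no source used here gives. Deviations of same-numbered libraries from their group means correlated at 0.664, 0.756 and 0.646 across genes, and all other pairs lay at 0.158 or below. Deviations cancel out within a group, so the low values of the other pairs follow in part from the high ones. Values with the replicate number as a block are therefore printed where they change a call. The text names every member, Pkm, up to 5 genes called per adjoining list, and the 5 genes most like G6pdx and Tkt; Tigar, Nfe2l2, Keap1, the low relatives and the overlapping genes were named after their values were seen. Other settings tried were DESeq2 1.42.0, scaling by RLE or upper-quartile factors, no filter, a minimum of 10 counts, limma 3.58.1 on log2(TPM + 1) and log2(TPM + 0.1), a fold over 2, each library or pair left out, and the block. The fitting steps were tested on simulated data.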

Additional observations from a re-analysis of the deposited data

How the results depend on the processing

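With no block and all libraries, edgeR called 0 members and 0 genes in all, under TMM or RLE factors. Genes called in all were 3 with upper-quartile factors, 9 with no filter, 3 with at least 10 counts in every library, and 1 with limma on log2(TPM + 1) and 1 on log2(TPM + 0.1), with 0 members each time. DESeq2 called 1 member and 825 genes. The replicate block called 3 members and 3524 genes, and changed no other member's call; without both libraries of replicate 2 it called 3 and 5941, and without those of replicate 1 or of replicate 3 it called 0 and 0, when 2 pairs remained. DESeq2 with the replicate block, chosen after seeing the data, called 3 and 3884. Leaving out single libraries with no block gave 0 to 1 members and 0 to 105 genes, the highest of both without siNC replicate 2. Over these alternatives Taldo1 kept a log2 fold change of 1.61 to 2.04, G6pdx of 0.50 to 0.79 and Pgd of 0.55 to 1.22. Tkt turned from -0.04 to 0.037 with the block and without replicate 2, 0.19 without siNC replicate 2, 0.03 without siPkm2 replicate 1 and 0.03 without siPkm2 replicate 3, and Rpe turned from 0.15 to -0.0094 without siNC replicate 3; over the single libraries left out, Tkt ranged from -0.18 to 0.19 and Rpe from -0.0094 to 0.25, and the cause was not tested. Of the 126 member values, 110 kept direction and side of the threshold, 11 passed the threshold newly and 5 turned sign. Depth limits mainly Rpia (226 to 354 counts per library). Transcript levels do not measure enzyme activity or flux.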
